A study of Mus musculus with 2 samples.

Results

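Oligodendrocytes of the ventral hippocampus (vHPC) were described in WT mice, which carry ADCY2-V151, and in L151 mice, which are homozygous for ADCY2-L151, a valine to leucine change in the membrane-bound enzyme adenylyl cyclase 2. The cells are those that the deposited annotation places in Oligodendrocytes_1, Oligodendrocytes_2, Oligodendrocytes_3 or Oligodendrocytes_4, which gave 1204 of the 8477 cells, 566 of them from WT and 638 from L151. All mice were males of 11 to 12 weeks on a mixed C57BL/6J x C57BL/6N background. The L151 line was made by gene editing, goes back to a single heterozygous founder, and also carries silent changes from the repair template. After the study had excluded 1 sample of each genotype, 1 library per genotype was left, with 4055 WT cells and 4422 L151 cells. A difference between the libraries therefore cannot be told apart from a difference between the preparations, no test between genotypes was made, and all intervals cover counting error only.

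Oligodendrocytes wrap the axons of neurons in myelin, which speeds conduction and insulates the axon. They arise from oligodendrocyte progenitor cells (OPCs) by way of committed progenitors (OPC_COP), which are on the way to becoming myelin-forming cells. Mature cells are recognised by Mbp, which holds the layers of myelin together, Mog, which sits on the outer surface of the sheath, and Mag, which lies against the axon. Counts per gene were not analysed here, so the cluster names were taken as deposited and were not checked against these markers. The description rests on what was recorded for every cell: its number of unique molecular identifiers (UMIs), each standing for a captured RNA molecule, how many genes those molecules came from, the percent of its UMIs from mitochondrial genes, and a doublet score. The WT library held 22049587 UMIs and the L151 library 22276085. The libraries shared 3 cell barcodes, and no oligodendrocyte carried any of them.

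The oligodendrocytes fell into a deep and a shallow population. Oligodendrocytes_1, the largest cluster, held 478 cells, Oligodendrocytes_2 held 333, Oligodendrocytes_3 held 292 and Oligodendrocytes_4 held 101. The first 3 clusters together made up 91.6% of the cells and were among the deepest of the 33 clusters, ranking 7, 6 and 4 from the top by median UMIs. Oligodendrocytes_4 ranked 24. Because their cells were deep, oligodendrocytes supplied 21.4% of all UMIs of the WT library and 22.4% of those of the L151 library, while being 566 of its 4055 cells and 638 of its 4422 cells, respectively.

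Oligodendrocytes_3 was the deepest cluster in both libraries. Its WT cells had a median of 9685 UMIs, with quartiles of 8655.5 and 11043.5, and its L151 cells a median of 8658 UMIs, with quartiles of 7700 and 10060. Oligodendrocytes_2 followed with medians of 8868 UMIs in WT (quartiles 7549.25 and 10160.8) and 7995 in L151 (7107 and 9571). In Oligodendrocytes_1 the medians were 8561.5 UMIs in WT (7091.25 and 9904.5) and 7404.5 in L151 (6571.75 and 8712). The quartile ranges of these 3 clusters overlapped within each library, so that neighbours in this order differed by less than the spread between cells. Oligodendrocytes_4 stood apart, with medians of 2202 UMIs in WT (1350.5 and 3196.5) and 1936.5 in L151 (1539.5 and 2687.75). Its upper quartile lay below the 10th percentile of every other oligodendrocyte cluster in the same library, the lowest of which was 5268 UMIs in WT and 5628.9 in L151.

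**Figure D1:**
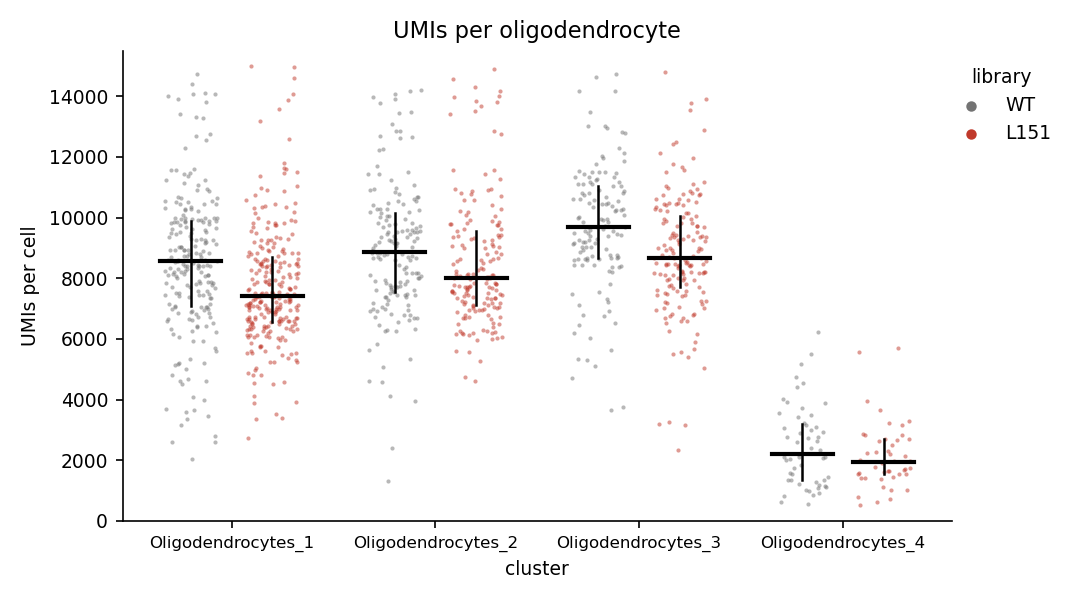
UMIs per cell (linear axis) of every oligodendrocyte by cluster with WT cells in grey and L151 cells in red, and with the median as a thick bar and the quartiles as a vertical line. Oligodendrocytes_4 lies far below the other clusters, and each L151 median is below its WT neighbour, 7404.5 against 8561.5 UMIs in Oligodendrocytes_1.

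The highest UMI number of any cell in the deposited table was 14989, although the study's methods name a maximum only for genes, of 5000. Of the oligodendrocytes, 13 WT and 10 L151 cells lay above 14000 UMIs, all of them in Oligodendrocytes_1, Oligodendrocytes_2 or Oligodendrocytes_3. At the lower end, the shallowest oligodendrocyte had 531 UMIs and 367 genes, and all 6 oligodendrocytes with fewer than 500 genes belonged to Oligodendrocytes_4. Of the cells of that cluster, 27 of 55 in WT and 30 of 46 in L151 had fewer than 1000 genes. Among the 1103 cells of the other oligodendrocyte clusters this held for 1 cell, and over all cells of the series for 22.2%.

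Gene numbers were highest in the deepest cluster and lowest in the shallowest. The median for Oligodendrocytes_3 was 3263 genes in the WT library and 3095 in the L151 library, that for Oligodendrocytes_2 was 2997.5 and 2820, and that for Oligodendrocytes_1 was 3005 and 2749.5. In Oligodendrocytes_4 the medians were 1021 and 869 genes. Genes per UMI, the number of genes of a cell divided by its UMIs, fall as a cell is sampled more deeply, since later molecules repeat genes already seen. They were correspondingly lowest in the deep clusters, with WT and L151 medians of 0.350 and 0.370 in Oligodendrocytes_1, 0.338 and 0.349 in Oligodendrocytes_2, and 0.334 and 0.355 in Oligodendrocytes_3, against 0.449 and 0.433 in Oligodendrocytes_4.

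In windows of similar depth below 4000 UMIs the medians of the shallow cluster were lower in genes, in cells that partly overlapped. Between 2000 and 3000 UMIs, the 16 WT cells of Oligodendrocytes_4 had a median of 1084.5 genes and the 5 WT cells of the other clusters 1361. The 13 L151 cells of Oligodendrocytes_4 had a median of 1016 genes and the 2 L151 cells of the others 1306. Between 3000 and 4000 UMIs the medians were 1399 genes (11 cells) against 1791 (10 cells) in WT, and 1320 (5 cells) against 1624 (8 cells) in L151. The L151 cells of this window did not overlap, with at most 1511 genes in Oligodendrocytes_4 and at least 1543 in the others. The WT cells did, with a highest value of 1842 genes in Oligodendrocytes_4. Depth was not fully matched inside these windows. The WT cells of Oligodendrocytes_4 had medians of 2364 and 3427 UMIs, against 2602 and 3659 in the others. In L151 the medians were 2626 and 3299 UMIs against 2548 and 3373. Among the few deeper cells the gap was small. In WT all such cells of Oligodendrocytes_4 had a doublet score over 2, since those scoring up to 2 reached at most 3904 UMIs. Between 4000 and 5000 UMIs the 4 WT cells of Oligodendrocytes_4 had a median of 1994.5 genes against 2008 in 11 WT cells of the other clusters, and no L151 cell of Oligodendrocytes_4 fell in this window. Between 5000 and 6000 UMIs its 2 WT cells had 2216 genes against 2291 in 17 cells, and its 2 L151 cells had 2130.5 against 2274 in 30, with overlapping ranges throughout.

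Mitochondrial transcripts, which encode subunits of the respiratory chain, made up a larger part of the RNA in Oligodendrocytes_4. Its median was 10.8% in WT (quartiles 4.52 and 15.5%) and 14.3% in L151 (9.05 and 18.2%). The other clusters were tightly grouped, with WT and L151 medians of 4.55% and 4.67% in Oligodendrocytes_1, 4.10% and 4.03% in Oligodendrocytes_2, and 4.48% and 4.27% in Oligodendrocytes_3. More than 10% mitochondrial UMIs were found in 29 of 55 WT cells and 34 of 46 L151 cells of Oligodendrocytes_4. In the other oligodendrocyte clusters this held for 12 of the 1103 cells, but over all cells of the series for 29.8%. For astrocytes it held for 28.5%. By median mitochondrial percent over both libraries, Oligodendrocytes_4 (12.1%) ranked 6 from the highest of the 33 clusters, below Astrocytes_2 (12.5%). Among the other oligodendrocytes, 6 of 511 WT cells and 6 of 592 L151 cells were above 10%. The 2 highest values there, 20.7% in Oligodendrocytes_1 and 22.2% in Oligodendrocytes_3, were both in L151 cells.

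The higher percentage of Oligodendrocytes_4 stood beside fewer mitochondrial UMIs and far fewer other UMIs per cell. Its cells had a median of 207 mitochondrial UMIs in WT and 324 in L151, against 391 and 349 in the other 3 clusters together, which is 0.529 and 0.928 times as many. UMIs of all other genes were lower still, with medians of 2002 in WT and 1642.5 in L151 against 8595 and 7629.5, or 0.233 and 0.215 times as many. Below 4000 UMIs, the median was 4.77% in 16 WT cells and 6.70% in 10 L151 cells of the other clusters, with a highest value of 9.12%. In the same range it was 11.6% in 48 WT cells and 14.8% in 44 L151 cells of Oligodendrocytes_4, from 0% to 24.8%. Within this range the cells of the other clusters were deeper, with medians of 3424.5 UMIs in WT and 3312.5 in L151 against 2087.5 and 1845.5. The difference in mitochondrial percent was also seen in narrower windows, although the authors drew the clusters from the RNA of these same cells. Which shallow cells lie in Oligodendrocytes_4 may therefore depend on the measures compared here. Between 2000 and 3000 UMIs the other clusters had medians of 6.12% in WT (5 cells) and 8.02% in L151 (2 cells), and Oligodendrocytes_4 had 12.0% (16 cells) and 17.2% (13 cells). Between 4000 and 5000 UMIs it was absent in WT. There the 4 cells of Oligodendrocytes_4, all with a doublet score over 2, had a median of 3.92% and the 11 others 5.53%.

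With depth counted over non-mitochondrial UMIs, the gap in genes depended on the window. Between 2000 and 3000 such UMIs, Oligodendrocytes_4 had a median of 1163.5 genes in WT and the other clusters 1361, at median depths of 2477.5 and 2403. The L151 medians of 1097 and 1447 genes, the last from 4 cells, were not at the same depth, with 2388 against 2721 such UMIs. Between 3000 and 4000 the WT medians were 1626.5 (6 cells) against 1791 genes (11 cells). They were nearly equal between 4000 and 5000, with 2032 (3 cells) against 2056 genes (15 cells). The 3 cells of Oligodendrocytes_4 there all had a doublet score over 2. The WT medians were also close between 1000 and 2000, with 759 (19 cells) against 768 genes in a single cell.

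**Figure D2:**
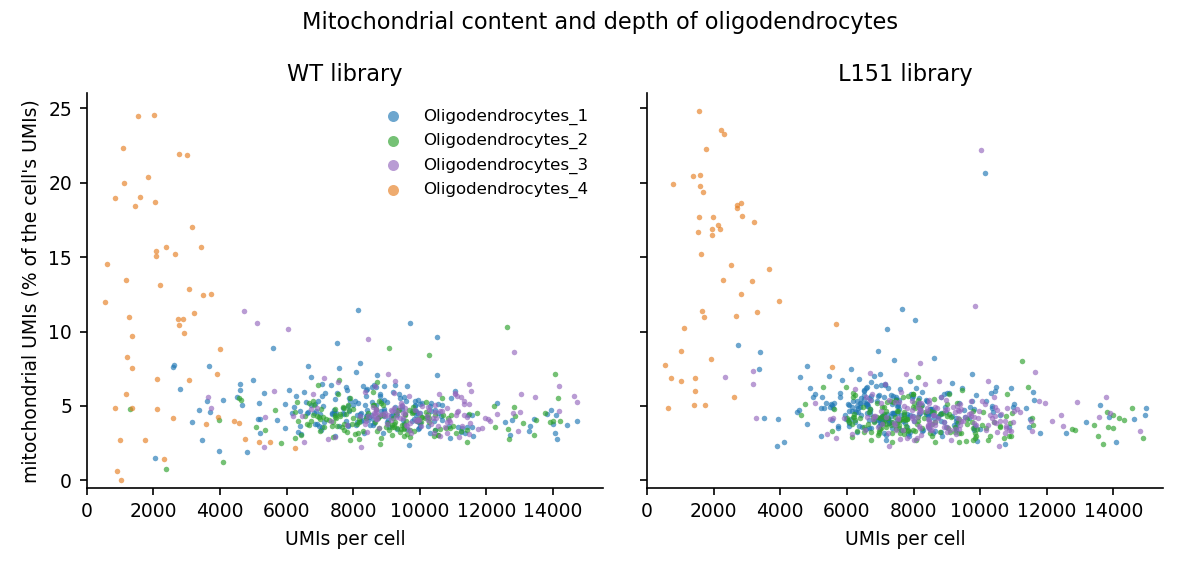
Mitochondrial UMIs in percent of each cell's UMIs against its UMIs (both linear axes), in the WT library on the left and the L151 library on the right, with a colour for each oligodendrocyte cluster. Oligodendrocytes_4 spreads upwards at low depth to 24.8%, while the cells of the other clusters below 4000 UMIs stay at or below 9.12%.

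The doublet score also differed between the clusters, though cells of Oligodendrocytes_1 to 3 overlapped. Its formula and scale are not given in the sources used here, and the study had already removed putative doublets, so it is given only as deposited, from 0 to 2.98 over all cells. Oligodendrocytes_2 had the highest medians, 1.28 in WT and 1.26 in L151, and 78.7% of its cells exceeded a score of 1. In Oligodendrocytes_3 the WT median was 0.919 and the L151 median 0.979, with 42 of 131 WT cells (32.1%, 95% interval 24.2 to 40.8%) and 75 of 161 L151 cells (46.6%, 38.7 to 54.6%) above 1. Oligodendrocytes_1 was narrow, with medians of 0.860 and 0.855 and quartiles of 0.838 and 0.916 in WT and of 0.825 and 0.895 in L151. A score of exactly 0 was found in 80 of the 101 cells of Oligodendrocytes_4 and in 8 of the 1103 cells of the others, compared with 26.5% of all cells of the series. It was not particular to this cluster. All 28 OPCs scored 0, and Astrocytes_2, with medians of 1462 UMIs and 12.5% mitochondrial UMIs, had a median score of 0. Among the 33 clusters, every cluster with a median score of 0 ranked between 22 and 33 from the top by median UMIs. The only cluster of these ranks with another median was Astrocytes_4, at rank 23 with 2910 UMIs and a score of 1.62.

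The cells of Oligodendrocytes_4 that did not score 0 were unevenly divided between the libraries. A score over 2 was found in 15 of 55 WT cells (27.3%, 95% interval 16.1 to 41.0%) and in 2 of 46 L151 cells (4.35%, 0.531 to 14.8%). In clusters Oligodendrocytes_1 to 3, 3 of 511 WT and 3 of 592 L151 cells scored over 2. Over all cell types such scores were more frequent, in 12.6% of WT and 11.6% of L151 cells. The 15 WT cells were deeper than the rest of their cluster, with a median of 3938 UMIs and 1842 genes, and held a median of 3.98% mitochondrial UMIs, with 12 of them below 10%. The 38 WT cells at 0 had a median of 1667 UMIs, 795 genes and 12.7%, close to the 1757 UMIs, 854.5 genes and 14.8% of the 42 L151 cells at 0. Of the cells at 0, 13 of 38 in WT and 11 of 42 in L151 were below 10%. In WT, Oligodendrocytes_4 thus held shallow cells, most of them high in mitochondrial content, beside deeper cells with a high score. Most of the latter were low in mitochondrial content. The L151 library had 2 cells over a score of 2. The part of the cells over 2 in the differences between the libraries in this cluster was measured only by leaving them out, as given beside the results that follow.

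**Figure D3:**
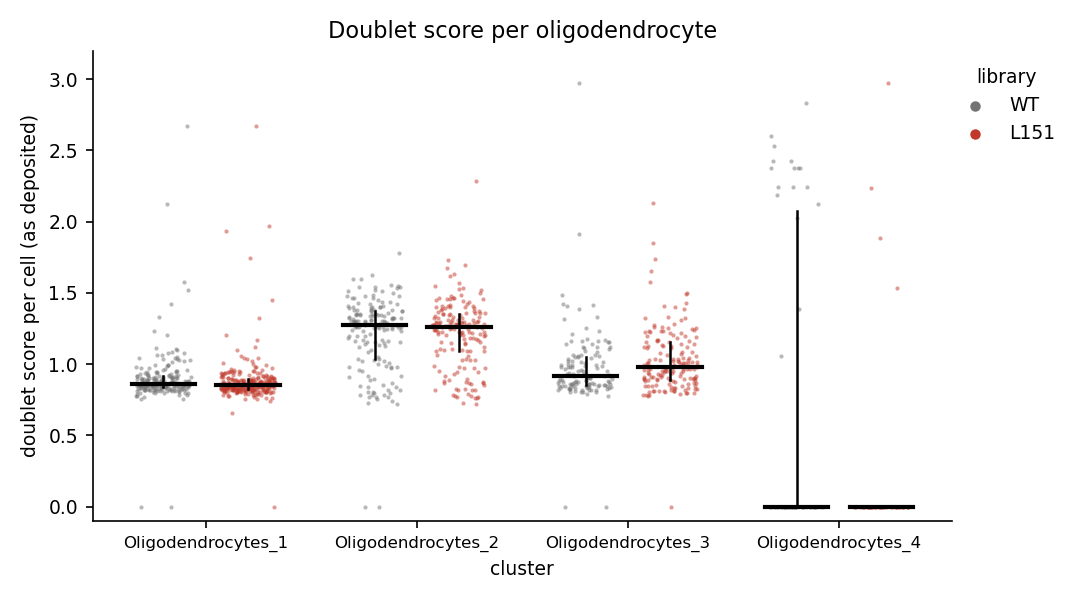
Deposited doublet score of every oligodendrocyte (linear axis, no unit) by cluster with WT cells in grey and L151 cells in red, and with the median as a thick bar and the quartiles as a vertical line. In Oligodendrocytes_4 most cells lie at 0, and a group over 2 holds 15 WT and 2 L151 cells.

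Within the lineage, mature oligodendrocytes were compared with OPC_COP at equal depth, since OPC_COP had similar UMIs, with medians of 8039.5 in WT (64 cells) and 7303 in L151 (39 cells). OPC_COP had more genes. Their doublet scores were also higher, with medians of 1.95 in WT and 1.91 in L151, and the part of this in the gene numbers was not tested. Between 7000 and 8000 UMIs, oligodendrocytes of clusters 1 to 3 had medians of 2756 genes in WT (68 cells, 2540 to 2984) and 2757.5 in L151 (140 cells, 2472 to 3034). The OPC_COP cells of the same window had 3505 genes in WT (9 cells, 3342 to 3695) and 3569.5 in L151 (8 cells, 3298 to 3652). In windows of 1000 UMIs with at least 5 cells of each kind, OPC_COP had 1.27 to 1.31 times as many genes in 6 of 6 windows in WT and 1.25 to 1.298 times as many in 5 of 5 in L151, and in every one of these windows the lowest OPC_COP cell lay above the highest oligodendrocyte. In these windows the ratio to oligodendrocytes ran from 0.994 to 1.03 for astrocytes. For microglia, which had too few cells between 10000 and 11000 UMIs in WT, it ran from 0.893 to 0.999. The cells of both types overlapped with the oligodendrocytes in each window. Over all windows with at least 5 cells of each kind, which reach down to 2000 UMIs and as few as 5 oligodendrocytes, the ratios ran from 0.807 to 1.03 for astrocytes and from 0.893 to 1.09 for microglia. The windows of 1 library share its preparation, so they are not independent repeats. Mitochondrial content was lower in OPC_COP, with medians of 3.19% in WT and 2.98% in L151. The OPCs, with 5 WT and 23 L151 cells and medians of 996 and 873 UMIs, were too shallow for this comparison.

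**Figure D4:**
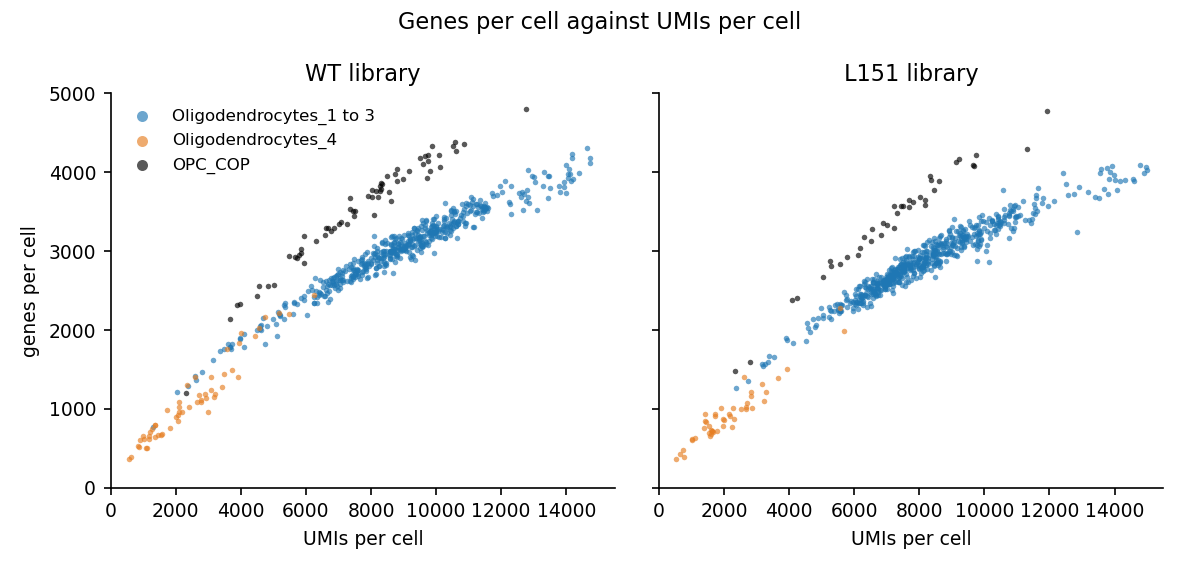
Genes per cell against UMIs per cell (both linear axes) in the WT library on the left and the L151 library on the right, for Oligodendrocytes_1 to 3 (blue), Oligodendrocytes_4 (orange) and OPC_COP (black). From 5000 UMIs upwards OPC_COP runs above the oligodendrocytes at equal depth, with 3505 against 2756 genes between 7000 and 8000 UMIs in WT. Most cells of Oligodendrocytes_4 lie below 4000 UMIs.

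L151 oligodendrocytes held fewer UMIs than WT oligodendrocytes. The L151/WT ratio of median UMIs was 0.865 in Oligodendrocytes_1, 0.902 in Oligodendrocytes_2, 0.894 in Oligodendrocytes_3 and 0.879 in Oligodendrocytes_4, lower in 4 of 4 clusters. The direction was not particular to oligodendrocytes, since 20 of the 29 clusters of other types also had a ratio under 1, and the quartile ranges of the libraries overlapped in every oligodendrocyte cluster. In Oligodendrocytes_4, leaving out cells with a doublet score over 2, a choice made after the values were seen, gave a ratio of 1.03. The ratio was 0.575 with at most 10% mitochondrial UMIs, a limit that kept 12 WT and 0 L151 cells scoring over 2.

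In the deep clusters the difference in genes between the libraries was smaller at equal depth. L151 minus WT was -255.5 genes in Oligodendrocytes_1, -177.5 in Oligodendrocytes_2 and -168 in Oligodendrocytes_3 by the medians of all cells. Compared within windows of 1000 UMIs, each weighted by its cells, it was -18.7, -45.8 and 38.9 genes. Genes per UMI, higher in L151 by 0.0206, 0.0110 and 0.0215, differed by 0.000268, -0.00176 and 0.00295 at equal depth. In Oligodendrocytes_4 the difference was -152 genes over all cells and -14.4 at equal depth, and without the cells with a doublet score over 2 the median was 1.05 times that of WT. Its genes per UMI differed by -0.0155 over all cells and by -0.0377 at equal depth, but by 0.102 with at most 10% mitochondrial UMIs, so the direction rested on which cells were counted.

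Mitochondrial content differed little between the libraries in the deep clusters, where L151 minus WT was 0.117 percentage points in Oligodendrocytes_1, -0.0707 in Oligodendrocytes_2 and -0.213 in Oligodendrocytes_3, each less than the distance between the quartiles. In Oligodendrocytes_4 L151 was higher by 3.50 percentage points, and by 3.61 at equal depth, with overlapping quartile ranges. The windows behind the latter value did not agree. Below 1000 UMIs the direction was opposite, with medians of 12.0% in 5 WT cells and 7.30% in 4 L151 cells. Between 1000 and 2000 UMIs the WT and L151 medians were 10.3% and 15.8%. They were 12.0% and 17.2% between 2000 and 3000, and 12.4% and 13.4% between 3000 and 4000. Over all depths, without the cells with a doublet score over 2, the difference was 2.60 percentage points, from 12.2% in 40 WT cells to 14.8% in 44 L151 cells. This difference rests on 55 and 46 cells of 1 library each.

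The share of oligodendrocytes in the libraries did not differ beyond counting error, with an L151/WT ratio of 1.03 (95% interval 0.922 to 1.16). By cluster the ratio was 1.11 (0.925 to 1.34) for Oligodendrocytes_1, 0.945 (0.758 to 1.18) for Oligodendrocytes_2, 1.13 (0.889 to 1.43) for Oligodendrocytes_3 and 0.767 (0.507 to 1.16) for Oligodendrocytes_4, each interval including 1. Oligodendrocytes_1 made up 5.33% of WT and 5.92% of L151 cells, Oligodendrocytes_2 4.04% and 3.82%, Oligodendrocytes_3 3.23% and 3.64%, and Oligodendrocytes_4 1.36% and 1.04%. Among oligodendrocytes alone, the make-up was 38.2% and 41.1% for Oligodendrocytes_1, 29.0% and 26.5% for Oligodendrocytes_2, 23.1% and 25.2% for Oligodendrocytes_3, and 9.72% and 7.21% for Oligodendrocytes_4.

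Shares are parts of a whole, and the L151 library held a larger part of neurons. Taken over the 2675 WT and 2685 L151 cells that are not neurons, the ratio was 1.12 (1.001 to 1.26) for all oligodendrocytes and 1.21 (1.01 to 1.45) for Oligodendrocytes_1, intervals that lay just above 1. For Oligodendrocytes_4 the ratio depended on which cells were counted. It was 0.423 (0.194 to 0.868) with at most 10% mitochondrial UMIs, which left 12 L151 and 26 WT cells. Of these, 0 L151 and 12 WT cells had a doublet score over 2, and 12 L151 and 14 WT cells scored up to 2. Without the cells scoring over 2, at any mitochondrial percent, the ratio was 0.996 (0.635 to 1.57).

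**Figure D5:**
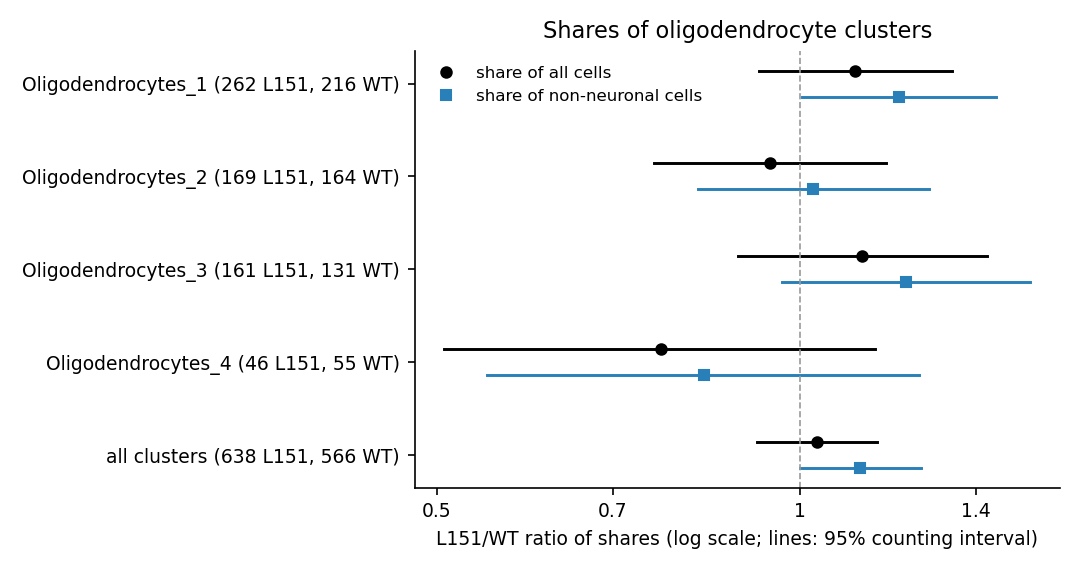
L151/WT ratio of the share of each oligodendrocyte cluster (log axis) among all cells (black circles) and among non-neuronal cells (blue squares), with 95% counting intervals as lines and cell numbers in brackets. Over all cells each interval includes 1, and over non-neuronal cells the ratio is 1.21 for Oligodendrocytes_1 and 1.12 for all clusters together.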

How the data were processed

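Per the labels, cells of the vHPC were dissociated with papain and captured with 10x Genomics 3′ chemistry, 1 library per genotype. Cell Ranger 3.0.2 and the mm10 build are named in the submitters' processing notes. The deposited counts of UMIs and genes per cell are whole numbers without normalization. The deposited mitochondrial percent refers to a cell's own UMIs, and the deposited doublet score has no stated scale. The authors took out doublets (scran), blood cells and droplets outside 320 to 5000 genes or above 25% mitochondrial content. Clustering was done by the authors in Seurat 3.1.3. Cluster names were used as deposited.

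Medians, quartiles, shares with exact Clopper-Pearson 95% intervals and L151/WT ratios of shares were computed in Python 3.11.15 (scipy 1.17.1, numpy 2.4.6, pandas 2.3.3) and plotted with matplotlib 3.10.9. The interval of a ratio was derived from the exact interval for L151 cells among the cells of both libraries. The interval of a ratio and the equal-depth difference were tested on simulated data, the latter with more and deeper cells than Oligodendrocytes_4 has. The other calculations were not tested in this way. Equal depth means windows of 1000 UMIs, between libraries those with at least 3 cells in each, weighted by cells. Cells could not be thinned without counts per gene. No test between genotypes was made. The clusters and measures were chosen with earlier results of these data known. Alternatives were minimums of 500 and 1000 genes and 1000 UMIs, at most 10% mitochondrial UMIs, other denominators, leaving out each cluster, means, summed UMIs, log10 ratios and equal depth. Leaving out scores over 2 and leaving out mitochondrial UMIs were chosen after the data were seen. No gene is named with a value. Clusters named are the 4 of oligodendrocytes, with OPC_COP, OPCs, astrocytes and microglia for comparison.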

Additional observations from a re-analysis of the deposited data

Results flagged for a closer look

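For some measures the L151 library moved in opposite directions in different oligodendrocyte clusters. With 1 library per genotype these differences between clusters were not tested. The ratio of shares was lowest in Oligodendrocytes_4 (0.767) and highest in Oligodendrocytes_3 (1.13), with both counting intervals including 1. Without doublet scores over 2 the ratio of Oligodendrocytes_4 was 0.996. Genes per UMI differed by -0.0155 in Oligodendrocytes_4 and by 0.0215 in Oligodendrocytes_3. At equal depth these differences were -0.0377 and 0.00295. With at most 10% mitochondrial UMIs the difference in Oligodendrocytes_4 was 0.102, in the same direction as in Oligodendrocytes_3. The mitochondrial percentage differed most in Oligodendrocytes_4, by 3.50 percentage points, and had the opposite sign in Oligodendrocytes_3, at -0.213. The median doublet score differed by -0.0149 in Oligodendrocytes_2 and by 0.0597 in Oligodendrocytes_3. As a mean over cells the score differed by 0.00680 in Oligodendrocytes_2 and by 0.0565 in Oligodendrocytes_3, so these clusters did not differ in direction. By means it differed by -0.0161 in Oligodendrocytes_1 and by -0.5005 in Oligodendrocytes_4.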

How the results depend on the processing

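The 25 comparisons were recomputed with other settings, which gave 167 values. Of these, 160 were counted as unchanged and 7 were not. For shares, unchanged meant within the counting interval of the ratio. For medians it meant within the range reached when both libraries' medians moved to opposite ends of their own intervals. These ranges are wide for the 46 and 55 cells of Oligodendrocytes_4. The 4 values from log10 ratios were judged by their sign only. Among the others, a value counted as unchanged could have the opposite direction. In Oligodendrocytes_2 the ratio of shares was 0.945, but 1.02 with at least 1000 genes per cell and 1.03 over non-neuronal cells. Its difference in genes per UMI was 0.0110, but -0.00176 at equal depth. The limit of at most 10% mitochondrial UMIs kept 12 WT and 0 L151 cells of Oligodendrocytes_4 with a doublet score over 2. With it, the cluster's ratio of shares was 0.423 and its difference in genes per UMI 0.102. Its difference in median doublet score was -0.530. The last was -1.71 with at least 1000 genes per cell and -0.5005 as a mean. At equal depth the difference in genes per UMI was 0.000268 in Oligodendrocytes_1 and 0.00295 in Oligodendrocytes_3. The mitochondrial difference of Oligodendrocytes_4 ranged from 2.56 to 5.45 percentage points, its UMI ratio from 0.575 to 1.03, and its gene ratio from 0.688 to 1.05, the highest of both without doublet scores over 2. In Oligodendrocytes_1 to 3 the UMI ratios ranged from 0.863 to 0.956. Depth per gene was not analysed here. No paired analysis was possible because each genotype has 1 library.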
